A study of Homo sapiens with 4 samples.

Results

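Binding of SNAIL1 was examined at 5 claudin genes, CLDN7, CLDN3, CLDN4, CLDN1 and CLDN15, in LS174T cells, a human cell line established from a colorectal adenocarcinoma. A peak was assigned to a gene when its summit lay within 10 kb of the gene body on the human build hg19. This rule took 6 of the 2177 peaks listed in 4 chromatin immunoprecipitation (ChIP-seq) libraries. The genes were chosen by the peaks near them in these same lists, so which of them carried a peak, and how strong it was, is given as a description with no test.

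All 4 libraries came from LS174T cells of the line pN1-LS174T Snail1-HA, which holds a doxycycline-inducible transgene for murine SNAIL1 with a hemagglutinin (HA) tag, and all were precipitated with the same anti-HA antibody. Doxycycline at 0.1 mg/ml had been present for 6 h in the cells of the libraries called induced 1 and induced 2, and was withheld from those of uninduced 1 and uninduced 2. The binding protein is thus a transgene product and not the cells' own SNAIL1, and the sources used here do not say whether the line is 1 clone. The series calls the 2 libraries of a condition biological replicates, without stating separate cultures. Part of the difference between replicates may therefore be technical.

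Claudins are membrane proteins that span the membrane several times and polymerise into the strands of tight junctions, where they seal the space between epithelial cells or form ion-selective pores through it. SNAIL1 is a zinc-finger repressor of epithelial genes that recognises E-boxes of the sequence CAGGTG, or CACCTG when read on the opposite strand. Loss of claudins is a known part of the epithelial-mesenchymal transition, the change of epithelial cells to a migratory form. CLDN1, CLDN3, CLDN4 and CLDN7 belong to the claudins found in colonic epithelium, and CLDN15 is known as a cation-pore claudin of the intestine.

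The lists held 823 peaks in induced 1, 1338 in induced 2, 5 in uninduced 1 and 11 in uninduced 2. Total reads were unknown, but the extended reads covering each summit (the pileup) were recovered from the listed values. Reads at a summit below are these extended reads, so the sequenced bases themselves need not cover it. The median pileup was 51 reads in induced 1 and 35 in induced 2. The lowest pileup of a listed peak was 28 and 17 in turn. In uninduced 1 and uninduced 2 it was 37 and 35. Pileups and backgrounds are in reads of the library's own ChIP, before the scaling to control that peak calling used. Their 95% intervals are exact Poisson intervals, which cover counting error only and treat reads as independent molecules.

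SNAIL1-HA peaks lay at 3 of the 5 claudin genes in induced cells. The share of all genes with a summit within 10 kb was not determined, so this count has no background beside it. CLDN7 and CLDN4 carried a peak in both induced libraries, CLDN3 carried one in induced 2 only, and CLDN1 and CLDN15 carried none. Induced 1 had 2 claudin peaks and induced 2 had 4. Both peaks of induced 1 overlapped a peak of induced 2 by at least 1 bp, and so did 80.3% of all peaks of induced 1. Of the 4 in induced 2, 2 overlapped a peak of induced 1, where the share over the whole list was 49.3%. Uninduced 1 and uninduced 2 listed 0 peaks at these genes. An overlap with an uninduced peak was rare in general, at 0.608% of the peaks of induced 1 and 0.523% of those of induced 2.

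**Figure D1:**
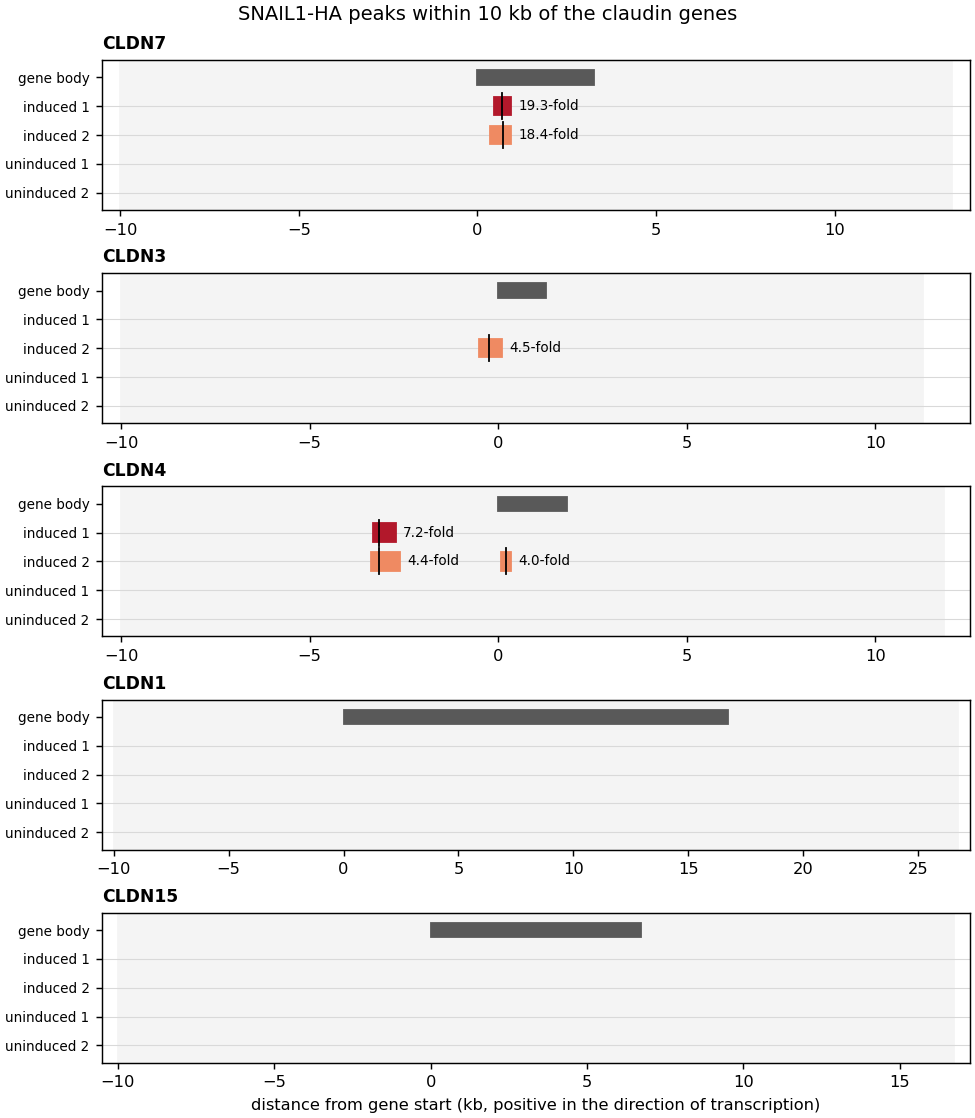
Peaks of the 4 libraries around each claudin gene, by distance from the gene start in kb (positive in the direction of transcription). Boxes are peaks with their listed fold enrichment, black lines are summits, the dark bar is the gene body and grey shading is the 10 kb window. Peaks stand inside CLDN7, before and inside CLDN4 and at the start of CLDN3, in induced libraries only.

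CLDN7, a claudin of tight junctions and of the lateral membrane of intestinal cells, had the strongest of these peaks. Its body runs on the minus strand of chromosome 17, from 7163223 to 7166499. The peak spanned chr17:7165563-7166045 in induced 1 and chr17:7165549-7166155 in induced 2 (hg19). The first interval lay wholly inside the second. The summits were 15 bp apart and stood 691 and 706 bp downstream of the gene start, within the gene body. Exons and introns of this build were not used here.

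CLDN7 stood at or near the top of each induced list by fold and by reads. Fold enrichment, as the authors list it, is the summit pileup over the local control background, each raised by 1 after the scaling to control. It was 19.3 in induced 1, rank 2 of 823. It was 18.4 in induced 2, rank 4 of 1338. The summit was covered by 196 reads (169.5 to 225) over a background of 8.82 in induced 1 and by 155 reads (132 to 181) over a background of 7.46 in induced 2. No peak of induced 1 had more reads. In induced 2 there were 2 with more, a 1.26-fold peak on chromosome 21 with 462 reads, and a peak on chromosome 6 with 174 reads that both uninduced lists also held. The CLDN7 pileups lay above the lowest pileup listed in either uninduced library. Those lists held only 5 and 11 peaks, which set no limit of detection. A CLDN7 signal was therefore not shown to be absent from uninduced cells.

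Between the induced libraries, the CLDN7 pileups stood close to the ratio seen over all shared peaks. The ratio of its pileups, induced 1 over induced 2, was 1.26 (95% interval 1.02 to 1.57), against 1.23 for the summed pileups of all 661 shared peaks. The exact two-sided binomial test of the first ratio against the second gave p = 0.83 (adjusted p = 1, Benjamini-Hochberg over the 661 peaks). This test found 0 of 661 peaks (0%) past an adjusted p of 0.05, and 19 (2.87%) had an unadjusted p under 0.05. Only peaks listed in both induced libraries entered it, and the expected ratio came from the same peaks. Sites listed in a single library were left out beforehand, so these counts do not measure agreement between the libraries. The interval of the CLDN7 ratio does not exclude a difference between the libraries, and it is not a detection limit of the test.

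The RefSeq promoter table (GRCh38.p14) gives CLDN7 an outer and an inner start, 735 bp apart, and the E-boxes stood at the inner one. Each window of the table holds 250 bases before a start and 50 after it. The bases before each CLDN7 start, both on the minus strand, are shown because 1 start has SNAIL E-boxes and the other has none, with CAGGTG and CACCTG in capitals. The outer stretch is chr17:7263214-7263463, the inner one chr17:7262479-7262728, and the site just after the inner start chr17:7262449-7262478.
CLDN7 outer start, before the start: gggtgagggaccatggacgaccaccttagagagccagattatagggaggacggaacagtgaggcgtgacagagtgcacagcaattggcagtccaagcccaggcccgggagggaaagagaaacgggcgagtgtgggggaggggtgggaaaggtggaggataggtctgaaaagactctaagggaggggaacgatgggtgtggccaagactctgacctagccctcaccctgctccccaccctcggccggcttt
CLDN7 inner start, before the start: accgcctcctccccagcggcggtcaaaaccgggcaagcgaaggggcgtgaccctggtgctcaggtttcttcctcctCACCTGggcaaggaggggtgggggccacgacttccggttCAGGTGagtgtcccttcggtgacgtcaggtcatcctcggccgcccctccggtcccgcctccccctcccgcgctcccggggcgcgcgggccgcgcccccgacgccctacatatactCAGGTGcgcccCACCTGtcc
CLDN7 inner start, after the start: gcccgCACCTGctggctcacctccgagcca

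The inner CLDN7 window held 5 SNAIL E-boxes and the outer window 0. Counted from the inner start, CAGGTG began at -135 and -20 bp, and CACCTG at -174, -9 and 6 bp. The more general E-box CANNTG, which includes these, also matched 5 times in the inner window, so every general match there was of the SNAIL type. Of all 35116 RefSeq windows of this length, 20.6% held at least 1 SNAIL E-box, and 33 windows (0.094%) held 5 or more. The GC content of the inner window was 71.7%, against a median of 58.7% over all windows.

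A point 735 bp into the gene falls inside the CLDN7 peak of each induced library, which covered 454 to 936 bp from the gene start in induced 1 and 344 to 950 bp in induced 2. The gene body is annotated 34 bp longer in GRCh38.p14 than the hg19 body used here, and no sequence of hg19 was used. The E-boxes were therefore not placed under the peak base by base. In RefSeq, ELP5, a gene for a subunit of the Elongator complex, overlaps CLDN7. Whether the peak also falls within ELP5 was not determined on hg19.

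**Figure D2:**
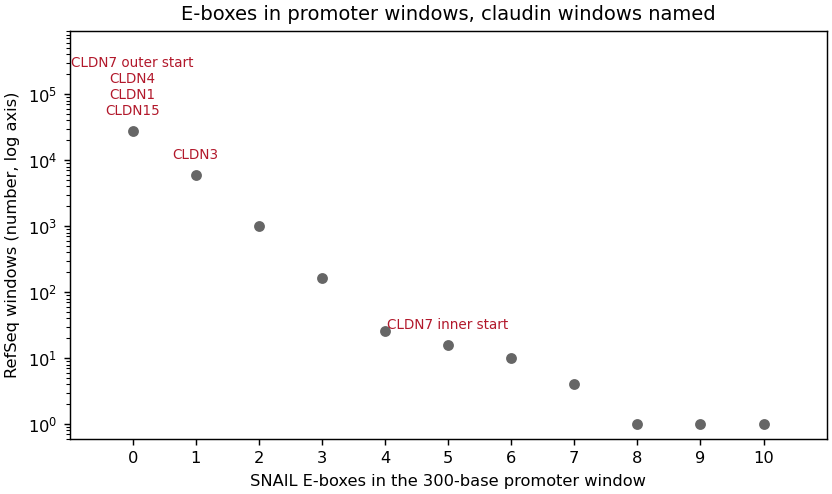
Number of RefSeq promoter windows (log axis) by the number of SNAIL E-boxes in the 300 bases of the window, over 35116 windows. Red names mark the 6 claudin windows at their counts: 4 have 0 matches, CLDN3 has 1 and the inner CLDN7 start has 5.

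CLDN4, a barrier-forming claudin and a receptor of Clostridium perfringens enterotoxin, had SNAIL1-HA peaks at a pair of places. Its body runs on the plus strand of chromosome 7, from 73245193 to 73247014. The first place was upstream, with a peak at chr7:73241863-73242477 in induced 1 and chr7:73241823-73242583 in induced 2. The summits stood 3150 and 3155 bp before the gene start and 5 bp apart. These were broad peaks, of 615 and 761 bp, where the median width was 338 bp in induced 1 and 336.5 bp in induced 2. No claudin summit lay farther from its gene than this one.

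The upstream CLDN4 site was in the upper part of both induced lists by reads, and by fold only in that of induced 1. The pileup was 89 reads (71.5 to 109.5) in induced 1, rank 80 of 823, and 63 reads (48.4 to 80.6) in induced 2, rank 137 of 1338. These ranks lie 9.72% and 10.2% of the way down their lists. Fold enrichment was 7.18 in induced 1, rank 172, but 4.40 in induced 2, rank 858. The local background was 11.2 reads in induced 1 and 13.6 in induced 2, so it was the lower in induced 1. Background ratios between the libraries had a median of 1.28 over the shared peaks, and the ratio here was 0.826. At most this ratio was found at 7.72% of the 661 shared peaks.

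At the upstream CLDN4 site the folds of the induced libraries lay farther apart than the reads did. The fold was 1.63 times higher in induced 1, a ratio reached by 28 of the 661 shared peaks (4.24%). The pileup ratio was 1.41 (95% interval 1.01 to 1.98), which is 1.15 times the overall ratio of 1.23 (exact two-sided binomial test, p = 0.416, adjusted p = 1). The interval does not exclude a sizeable difference in reads.

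**Figure D3:**
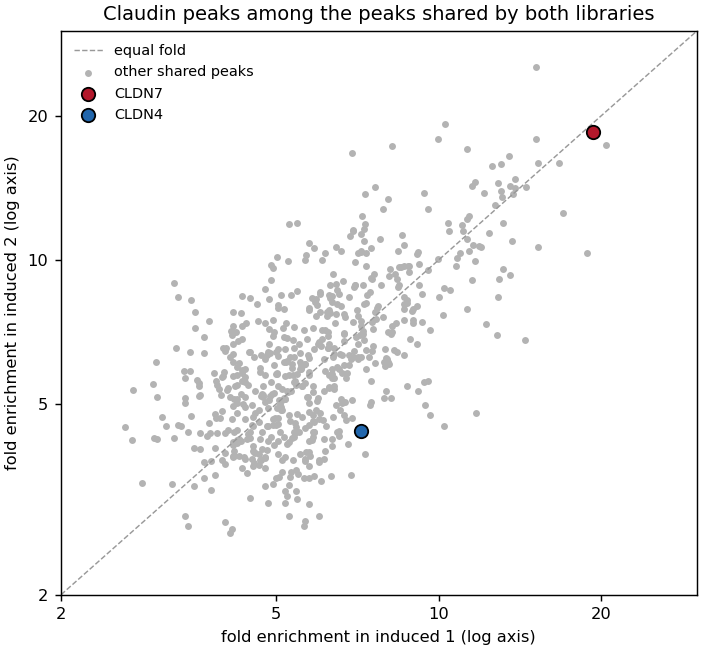
Fold enrichment in induced 1 and induced 2 (log axes) at the 661 peaks shared by both libraries. CLDN7, at 19.3 and 18.4, sits near the line of equal fold at the upper end, and the upstream CLDN4 peak, at 7.18 and 4.40, sits below the line.

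The second CLDN4 place was just inside the gene and was listed in induced 2 only. The peak at chr7:73245270-73245531 was narrow, at 262 bp, with its summit 203 bp after the gene start. It had 28 reads (18.6 to 40.5) over a background of 6.33 reads, and a fold of 3.96, rank 1051 of 1338. This was the weakest claudin peak by reads and by fold.

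CLDN3, the closest claudin neighbour of CLDN4 and also a barrier claudin and enterotoxin receptor, had 1 peak, listed in induced 2 only. Its body runs on the minus strand of chromosome 7, from 73183327 to 73184600, and ends 60.6 kb from CLDN4. The peak at chr7:73184510-73185110 was 601 bp wide and reached from -510 to 90 bp of the gene start. The summit stood 232 bp before the start. It had 29 reads (19.4 to 41.6) over a background of 5.65 reads, and a fold of 4.51, rank 808 of 1338. By reads it ranked 967, in the lower part of the list, whereas its width ranked 82.

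Peaks of like fold were often found in induced 2 alone. Among the 100 peaks of induced 2 closest in fold to the CLDN3 peak, 28 overlapped a peak of induced 1. Among the 100 closest to the CLDN4 peak inside the gene, 30 did. Over all peaks of induced 2 the share was 49.3%. These peaks were matched by fold only and not by reads. Scaled by the ratio of 1.23, the CLDN3 pileup corresponds to 35.6 reads in induced 1 (23.9 to 51.2) and that of the CLDN4 peak to 34.4 reads (22.9 to 49.7). Both ranges include the lowest pileup listed in induced 1, 28 reads. With the background scaled by the inferred depth, these levels correspond to a −log10 p of 9.11 and 7.51 and to folds of 3.86 and 3.39. The lowest listed in induced 1 were a −log10 p of 5.52 and a fold of 2.295, below the scaled levels of both sites. The ratio of 1.23 came only from peaks listed in both libraries, while these sites were listed in induced 2 only. The scaled levels may thus be too high, and whether either site would have been listed in induced 1 was not tested. The lists give no value where no peak was called, so neither site is shown to be unbound in induced 1. In the uninduced libraries, the lowest listed −log10 p was 13.5 among the 5 peaks of uninduced 1 and 7.74 among the 11 of uninduced 2. The CLDN3 peak had 12.2 and the CLDN4 peak 10.4 in induced 2. So few peaks set no limit of detection, and a signal of this size was not shown to be absent from uninduced cells.

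**Figure D4:**
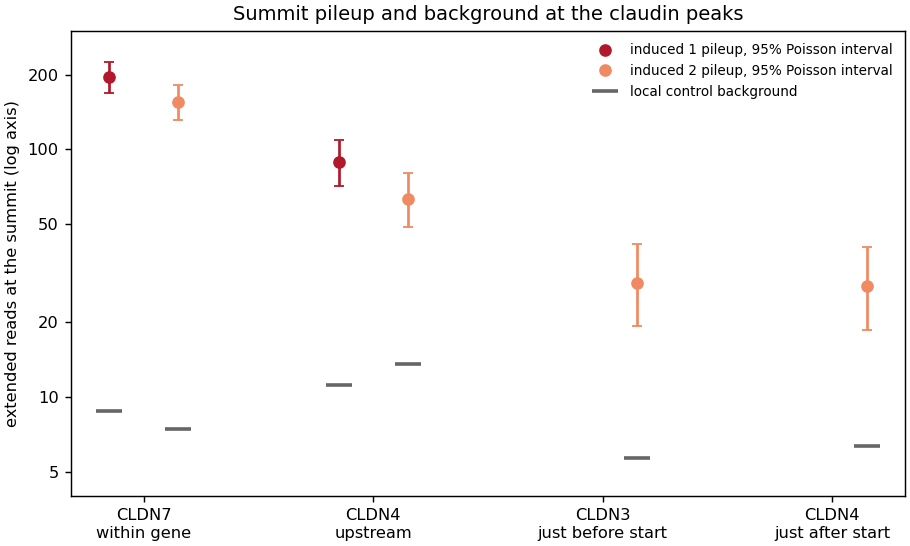
Extended reads at the summit (log axis) of each claudin peak in induced 1 and induced 2, with 95% exact Poisson intervals. Grey bars are the local control background. CLDN7 has 196 and 155 reads, the upstream CLDN4 site 89 and 63, and the 2 sites listed in induced 2 only have 29 and 28. Sites without a listed peak, among them all sites in uninduced cells, have no value.

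The RefSeq windows of CLDN3 and CLDN4 held few SNAIL E-boxes. The bases before each start are shown because both windows lie at genes with a peak close to the start, and neither stretch has a match. They are chr7:73770271-73770520 on the minus strand and chr7:73830746-73830995 on the plus strand (GRCh38.p14). The only match, in CLDN3, began 37 bp after the start and is shown in capitals in the stretch chr7:73770221-73770250.
CLDN3, before the start: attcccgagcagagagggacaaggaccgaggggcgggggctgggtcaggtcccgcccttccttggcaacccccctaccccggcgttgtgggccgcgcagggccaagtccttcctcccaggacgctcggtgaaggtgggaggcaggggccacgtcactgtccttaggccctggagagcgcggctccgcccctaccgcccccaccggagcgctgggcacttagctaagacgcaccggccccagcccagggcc
CLDN3, after the start: cccacaaagccacaggCAGGTGcaggcgca
CLDN4, before the start: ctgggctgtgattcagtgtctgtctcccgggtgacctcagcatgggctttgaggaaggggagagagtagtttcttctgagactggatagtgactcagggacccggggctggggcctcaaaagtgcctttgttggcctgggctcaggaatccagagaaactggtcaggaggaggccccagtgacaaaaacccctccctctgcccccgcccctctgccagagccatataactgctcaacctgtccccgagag

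The CLDN3 window held 1 SNAIL E-box, as 20.6% of all windows held 1 or more, and the CLDN4 window held 0. The CLDN3 body is annotated with the same length, 1274 bp, in hg19 and in GRCh38.p14, whereas the CLDN4 body differs by 127 bp (1822 and 1695 bp). The CLDN4 window had 2 matches to CANNTG, both after the start, and 68.7% of all windows had at least 1. The upstream CLDN4 peak lies outside the window. The CLDN4 peak inside the gene covered 77 to 338 bp after the hg19 start, beyond the 50 bases after the start that a window holds, and how the start annotated in GRCh38.p14 lines up with it was not determined. The 0 matches therefore do not describe the sequence under either CLDN4 peak, which was not analysed here.

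CLDN1, a barrier claudin of many epithelia, had no SNAIL1-HA peak in its window in any of the 4 lists. Its body runs on the minus strand of chromosome 3, from 190023490 to 190040235. The nearest summit lay 3.81 Mb away in both induced lists, at chr3:193848740-193849045 in induced 1 (4.84-fold) and chr3:193848668-193849031 in induced 2 (6.41-fold). Chromosome 3 held 22 peaks in induced 1 and 51 in induced 2. The RefSeq window of CLDN1 held 0 SNAIL E-boxes and 0 matches to CANNTG.

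CLDN15, the pore-forming member, had no peak in its window in any list either. Its body runs on the minus strand of chromosome 7, from 100875373 to 100882101. The nearest summit lay 1.25 Mb away in induced 1 (5.03-fold) and 0.842 Mb away in induced 2 (5.23-fold). The CLDN15 window held 0 SNAIL E-boxes and 1 match to CANNTG. Across the 5 genes, SNAIL E-boxes were thus found in the windows of CLDN7 and CLDN3, and in none of CLDN4, CLDN1 and CLDN15. Of all genes with a window, 24.1% had at least 1, with the number of windows per gene not matched. CLDN4 had a peak in both induced libraries, and its window does not describe the sequence under its peaks. A link between E-boxes and peaks was not tested.

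No summit outside the windows lay near the 10 kb limit. The summit nearest to a claudin gene but outside every window was that of induced 2 at chr7:72971411-72971757, 212 kb from CLDN3, with a fold of 6.86 and 40 reads. From CLDN7, the next summit was 1.48 Mb away in induced 1 and 0.589 Mb away in induced 2. Chromosome 17 held 66 peaks in induced 1 and 101 in induced 2. The usual spacing of peaks in these lists was not determined, so such gaps are not particular to the claudin genes. On chromosome 7, the CLDN3 and CLDN4 peaks were 3 of the 71 peaks of induced 2 and 1 of the 38 of induced 1.

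The 3 shared peaks most like CLDN7 in fold lay on chromosome 1, whose share of all shared peaks was not determined here. By the distance of log2 folds over the 2 libraries, the most alike was chr1:89990426-89991029 (20.4-fold and 17.3-fold, distance 0.12), followed by chr1:1111033-1111956 (distance 0.29) and chr1:154973524-154973959 (distance 0.35). The upstream CLDN4 peak had closer counterparts, namely chr1:60280115-60280520 (7.26-fold and 4.37-fold, distance 0.02), chr14:104314430-104314772 (distance 0.11) and chr2:28616509-28616832 (distance 0.12). The chromosome 1 counterpart of CLDN4 had 55 and 35 reads, fewer than the 89 and 63 at CLDN4.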

How the data were processed

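The data were 4 MACS2 peak lists, 1 per library, so peaks were called by the authors on single samples. Per the submitters' processing notes, the build was hg19 and the tools included MACS2 2.1.1.20160309, BWA 0.7.15 and Trimmomatic 0.36. The sources used here give neither the peak threshold nor the control library nor the handling of duplicates. The deposited columns used were the fold over background, the −log10 p and −log10 q, and the summit offset. The deposited score is 10 times the −log10 q, rounded down, and was not used further.

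The member genes, their coordinates and the rules were chosen with earlier results of these data known. Libraries were grouped by title. Named were the 5 genes with every peak in their windows. Also named were the 3 shared peaks most like the strongest peak of each gene bound in both induced lists. Other claudins were planned as counts, or by name with a peak in both induced lists. Those named below for an E-box in a window were outside that plan. Pileups were recovered by solving each peak's fold (pseudocount 1) and Poisson p for a whole read number, allowing a difference of 0.0005 in −log10 p. This gave a pileup for 823 of 823, 1338 of 1338, 5 of 5 and 11 of 11 peaks, with a scale of 1.40 in induced 1 and 1 elsewhere. The genome-wide floor of the background, 6.00 and 4.15 reads, put the depth of induced 1 at 1.45 times that of induced 2 if both used the same settings. Pileup recovery and the binomial test were tested on simulated data. Python 3.11.15, scipy 1.17.1 and numpy 2.4.6 were used. Alternatives covered the window, stricter lists, distance from the peak edge, the definition of shared peaks, the expected pileup ratio and leaving out 1 library. Counts at other claudin and tight junction genes were not run, since no hg19 annotation of them was used here.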

Additional observations from a re-analysis of the deposited data

How the results depend on the processing

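A minimum fold of 5 left 3 of the 6 claudin peaks, 1 of the 2 genes with a peak in both induced libraries (CLDN7) and a difference in mean peak number, induced minus uninduced, of 1.5 in place of 3. A window of 1 kb also left 1 such gene, because the upstream CLDN4 site lies outside it. It left 4 peaks. Windows of 5, 20 and 50 kb, a −log10 q of at least 5 and distance from the peak edge left 6 peaks and 2 genes. With 1 induced library left out, the number of genes with a peak was 2 to 3, since CLDN3 rests on induced 2 alone. The difference was 2 to 4 with 1 library left out. Leaving out an uninduced library could not change the difference, since neither listed a claudin peak. A replicate block gives the same difference of 3 by arithmetic, whatever the pairing, so it is not a check. The lists give no values from which the pairing of the numbers could be checked. The pileup ratio relative to all shared peaks was 0.874 to 1.03 at CLDN7 and 0.976 to 1.15 at CLDN4 over the settings run, with adjusted p of 0.655 to 1 (exact binomial test). A site without a listed peak has no value, which limits what the lists show at the weak CLDN3 and CLDN4 sites.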

Other observations

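Other claudin genes were examined by sequence only, in the RefSeq promoter windows of GRCh38.p14. Of the 23 claudin genes listed for this purpose, 18 had a window, 13 of them outside the 5 genes above. At least 1 SNAIL E-box was found in a window of 5 of these 13 genes, where 24.1% of all 27305 genes with a window had one. A match in any window of a gene counted, and the number of windows per gene was not matched. The 2 shares are therefore not strictly alike. These were CLDN14, an ion-barrier claudin of the inner ear and kidney, with 2 matches in a window, and CLDN6, CLDN16, CLDN18 and CLDN25 with 1 each. The count of 5 in the inner CLDN7 window was the highest among the 18 claudin genes with a window. SNAIL1 binding at these genes was not analysed here.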
